A study of Mus musculus with 13 samples.

Results

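The nuclear genes for the subunits of the respiratory chain and of ATP synthase were followed through development of the mouse submandibular salivary gland. Members were chosen by symbol, as the genes named Nduf (letters A, B, C, S or V and a number), Sdha to Sdhd, Uqcr, Cyc1, Cox4 to Cox8 and Atp5, which gave 84 of the 23364 genes in the files. They comprised 36 genes of complex I, 4 of complex II, 9 of complex III, 18 of complex IV and 17 of ATP synthase. Of these, 74 were common subunits, 7 were tissue isoforms of complex IV (Cox4i2, Cox6a2, Cox6b2, Cox7a1, Cox7b2, Cox8b and Cox8c) and 3 matched only by name (Cox7a2l, Atp5s and Atp5sl). Ndufa4 was counted with complex I by its name, although its protein is now placed in complex IV. Ndufs5 was listed at 0 in all 13 samples, and Cox7b2 and Cox8c stayed below 1 FPKM in every sample, which left 81 members and 73 common subunits for testing.

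RNA sequencing was performed on dissected submandibular glands of C57BL/6 mice, with no genotype change or treatment given, from embryos (E14.5, 3 samples, then E16.5 and E18.5, 2 samples apiece), from pups on postnatal day 5 (P5, 2 samples) and from grown males at 4 weeks (4wk) and 12 weeks (12wk), again 2 samples apiece. Embryonic samples were pools of glands from 3 animals at E14.5 and from 2 animals at E16.5 and E18.5. Sex was not ascertained at the earlier ages. The study treated the 7 embryonic samples as 1 stage and the 4 samples of 4wk and 12wk as the adult stage, and this grouping was kept.

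Oxidative phosphorylation passes electrons from NADH through complex I, or from succinate through complex II, to ubiquinone, complex III, cytochrome c and complex IV, which reduces oxygen. Complexes I, III and IV pump protons across the inner mitochondrial membrane, and ATP synthase uses the returning protons to make ATP. Complex IV carries subunits with alternative tissue forms, some of them typical of heart, skeletal muscle and brown fat, others of lung or testis. In the salivary gland the striated ducts are known for basal membrane folds packed with mitochondria, which serve salt transport.

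The values were FPKM, fragments per kilobase of transcript scaled to the depth of the library, and in the adult gland a few secretory genes took a large share of them. The 10 highest genes held 5.93% to 16.501% of all FPKM in the embryonic samples, 29.2% to 31.1% at P5 and 48.1% to 61.1% in the adult samples. Differences are therefore given both as deposited and, for the results that turn on scale, after division by median-of-ratios factors, which set the typical gene equal between samples. These factors ran from 1.15 to 1.38 in the embryonic samples, 1.03 to 1.09 at P5 and 0.617 to 0.714 in the adult samples. Reads on genes, estimated from the spacing of low FPKM values, ranged from 5817000 to 48314000, with both 4wk samples lowest at 5817000 and 7958000. Of the low values, 32.3% to 43.3% per library were whole multiples of the inferred value of 1 read, with the smallest shares at 4wk. These depths are therefore approximate. In these whole glands a smaller share of a cell type and less RNA per cell cannot be told apart.

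The promoters of 66 of the 84 members were found in RefSeq, and 6 are shown because their genes belong to isoform pairs compared further on. Cox7a1 and Cox8b encode the heart, muscle and brown fat forms of complex IV subunits whose general forms are Cox7a2 and Cox8a, and Atp5g1 and Atp5g3 encode the same protein of the proton-carrying ring of ATP synthase from separate genes. Each window spans 250 bases before to 50 after the annotated start on GRCm38.p6, at chr7:30183921-30184220 (plus strand) for Cox7a1, chr9:79759804-79760103 (minus) for Cox7a2, chr7:140900397-140900696 (minus) for Cox8b, chr19:7217567-7217866 (minus) for Cox8a, chr11:96075582-96075881 (minus) for Atp5g1 and chr2:73911277-73911576 (minus) for Atp5g3. Capitals mark matches, on either strand, to letters searched for as motifs. The first was the TATA box, spelled TATAAA. The second was the site of Ets factors, for which the letters CCGGAAG were used. The third was the half-site of the estrogen-related receptors, for which the letters AAGGTCA were used.
Cox7a1: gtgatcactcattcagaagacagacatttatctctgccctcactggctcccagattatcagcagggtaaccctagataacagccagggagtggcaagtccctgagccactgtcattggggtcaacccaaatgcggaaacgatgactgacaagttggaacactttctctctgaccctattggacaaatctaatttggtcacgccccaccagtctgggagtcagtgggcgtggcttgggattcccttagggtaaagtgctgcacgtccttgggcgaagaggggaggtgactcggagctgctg
Cox7a2: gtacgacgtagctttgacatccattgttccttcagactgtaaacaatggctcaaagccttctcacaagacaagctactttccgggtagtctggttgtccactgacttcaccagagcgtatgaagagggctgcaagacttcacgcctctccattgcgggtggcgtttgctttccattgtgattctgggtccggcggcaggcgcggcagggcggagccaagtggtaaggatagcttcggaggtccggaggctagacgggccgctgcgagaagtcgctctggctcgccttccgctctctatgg
Cox8b: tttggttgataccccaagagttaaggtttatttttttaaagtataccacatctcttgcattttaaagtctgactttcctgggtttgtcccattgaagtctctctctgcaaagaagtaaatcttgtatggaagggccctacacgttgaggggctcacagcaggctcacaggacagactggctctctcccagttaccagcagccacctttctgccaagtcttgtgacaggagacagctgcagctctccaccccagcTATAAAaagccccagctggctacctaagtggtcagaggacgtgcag
Cox8a: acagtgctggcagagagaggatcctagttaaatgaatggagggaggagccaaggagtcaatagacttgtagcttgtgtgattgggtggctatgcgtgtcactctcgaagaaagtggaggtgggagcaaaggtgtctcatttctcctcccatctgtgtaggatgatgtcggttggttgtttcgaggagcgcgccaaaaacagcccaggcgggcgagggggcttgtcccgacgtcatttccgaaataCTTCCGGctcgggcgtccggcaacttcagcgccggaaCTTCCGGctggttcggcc
Atp5g1: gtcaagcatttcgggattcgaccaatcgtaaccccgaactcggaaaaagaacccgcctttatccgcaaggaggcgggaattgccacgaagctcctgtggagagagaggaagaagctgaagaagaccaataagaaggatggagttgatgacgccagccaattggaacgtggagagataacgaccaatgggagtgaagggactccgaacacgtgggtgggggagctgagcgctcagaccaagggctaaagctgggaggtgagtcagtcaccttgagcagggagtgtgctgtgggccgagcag
Atp5g3: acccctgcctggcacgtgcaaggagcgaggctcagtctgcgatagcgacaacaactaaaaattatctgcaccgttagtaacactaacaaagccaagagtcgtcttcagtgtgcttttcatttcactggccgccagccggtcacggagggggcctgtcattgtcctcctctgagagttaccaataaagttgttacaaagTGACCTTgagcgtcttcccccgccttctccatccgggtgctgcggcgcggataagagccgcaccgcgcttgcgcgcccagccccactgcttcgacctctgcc
The windows of Cox7a1 and Cox8b held 7 and 2 CG pairs, against 20 and 19 in those of their general partners Cox7a2 and Cox8a, and 16 and 21 in those of Atp5g1 and Atp5g3.

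Over the 61 common subunits with a promoter in the table, CCGGAAG was present in 15 (24.6%), AAGATGGC (YY1) in 8 (13.1%), AAGGTCA in 8 (13.1%), the NRF1 palindrome in 5 (8.2%) and TATAAA in 5 (8.2%). Among the promoters of 10624 genes tested for expression the same letters were present in 16.51%, 4.36%, 3.2%, 1.96% and 7.64%, and among all 27025 genes of the table in 9.12%, 2.88%, 4.66%, 0.977% and 14.2%. Of the 4 tissue isoforms with a promoter, 2 had TATAAA and none had the other letters. These matches are a description of the letters in the windows, none of which overlaps another in the 6 windows shown, and no binding was measured.

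Messenger RNA for the common subunits stayed high from embryo to adult. As deposited, 0 of 73 common subunits were called between the adult and embryonic samples, while 38% of all 14650 tested genes were called lower and 5.58% higher. A call is a log2 difference of at least 1 in size with an adjusted p below 0.1 (limma on log2(FPKM + 1), Benjamini-Hochberg over all tested genes). The median log2 difference was -0.15 over the common subunits and -0.75 over all tested genes, and 72 of the 73 lay above the median of all genes. At the same adjusted p but with no minimum size, 4 were higher and 19 lower, against 11.7% and 69% of all tested genes, and 20 had an unadjusted p below 0.05.

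After median-of-ratios rescaling the same subunits rose as a group. The log2 difference was above 0 for all 73, from 0.11 to 1.86 with a median of 0.79, where the median of all tested genes was -0.08. By the 2-fold call 12 were higher (16.4%, against 13.8% of all tested genes) and 0 lower (14.7% of all tested genes), so that share was near the background, and without the first E14.5 sample 8 were higher. With no minimum size, 62 were higher (84.9%, against 31.4%) and 0 lower (37% of all tested genes). In 32 of the 73 every adult sample lay above every embryonic sample, which held for 20.1% of all tested genes, and the reverse held for 0 (24% of all tested genes). On the deposited values that held for 0 (6.29% of all tested genes), and every adult sample lay below every embryonic sample for Atp5g2, Ndufa5 and Ndufb6 only, where 54.1% of all tested genes did so.

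**Figure D1:**
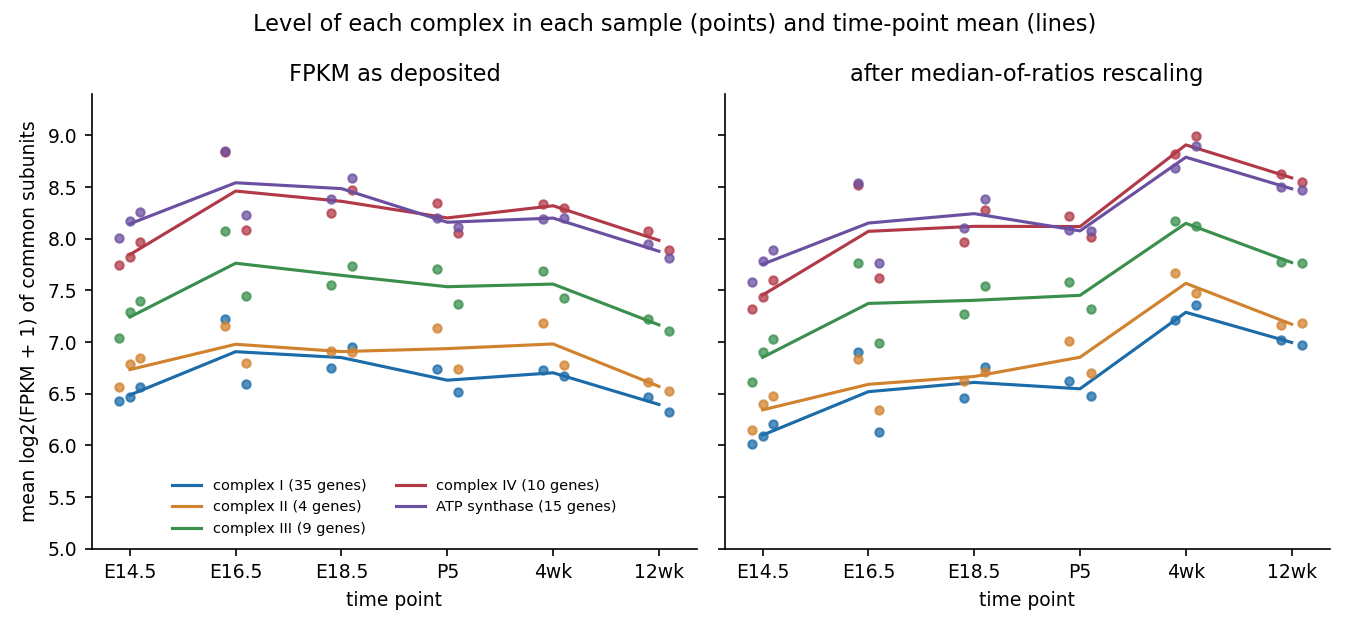
Mean log2(FPKM + 1) of the common subunits of each complex in each sample (points, replicates side by side) and the mean of each time point (lines), as deposited (left) and after median-of-ratios rescaling (right). As deposited the lines span less than 1 log2 unit with the first E16.5 sample highest in every complex but complex II, and after rescaling every complex is highest at 4wk.

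By complex the order of the differences was the same on both scales. As deposited, the mean log2 level of the common subunits changed from embryo to adult by -0.02 in complex IV, -0.08 in complex II, -0.14 in complex III, -0.16 in complex I and -0.32 in ATP synthase. The SD over the 7 embryonic samples was between 0.18 in complex II and 0.39 in complex IV, so only the ATP synthase difference exceeded its own SD of 0.28. After rescaling the differences were 0.93, 0.86, 0.80, 0.78 and 0.63 in the same order. Summed FPKM of all 84 members ran from 11759 to 22721 in the embryonic samples and from 11179 to 15743 in the adult samples, and from 8762 to 18230 and from 17668 to 23619 after rescaling. The common subunits ranked high among all genes at every age, with a median percentile of 96.2 to 97.7 in the embryonic and 97.8 to 98.2 in the adult samples.

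Complex I, which oxidises NADH, held the common subunit with the highest difference. Ndufa1, a small membrane subunit encoded on the X chromosome, ran from 64.3 to 149 FPKM in the embryonic samples with a median of 87.0, and P5 gave 133 and 118, 4wk 204 and 235, and 12wk 168 and 141. Only the lower 12wk sample fell within the embryonic range, whose top was the first E16.5 sample. The log2 difference was 0.92 ± 0.23 (SE, adjusted p = 0.0022), short of 2-fold, and it passed 2-fold without the first E16.5, the second E18.5 or the second 12wk sample, at 1.03, 1.01 and 1.05. After rescaling it was 1.86 ± 0.26 and the adult samples, from 223 to 381, lay above all embryonic samples, from 46.6 to 121.

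Ndufb9, another membrane-arm subunit, had a log2 difference of 0.28 ± 0.22 as deposited (adjusted p = 0.27) and 1.22 ± 0.24 after rescaling (adjusted p = 0.00073). At the other end were Ndufb6 and Ndufa5, accessory subunits at -0.65 ± 0.17 and -0.62 ± 0.16 (adjusted p = 0.0031 and 0.0026). Ndufa5 ran from 90.4 to 164 FPKM in the embryonic samples and was 64.2, 88.6, 70.1 and 62.5 in the adult samples, with no overlap. After rescaling neither passed, at 0.29 and 0.32 (adjusted p = 0.20 and 0.13). The most abundant gene of complex I at 12wk was Ndufa4, at 318 and 282 FPKM against 331 to 817 in the embryonic samples, and at 466 and 446 against 247 to 655 after rescaling. Its adult difference was -0.28 ± 0.24 as deposited (adjusted p = 0.30) and 0.66 ± 0.26 after rescaling (adjusted p = 0.042).

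Complex II, succinate dehydrogenase, also serves the citric acid cycle. Sdhb, its iron-sulfur subunit, ran from 103 to 168 FPKM in the embryonic samples with a median of 120, and was 219, 167, 132 and 125 in the adult samples. The adult values overlapped the upper part of the embryonic range, and the log2 difference was 0.37 ± 0.18 (adjusted p = 0.076). After rescaling it was 1.31 ± 0.18 (adjusted p = 3.9e-05), with 194 to 307 in the adult samples and 74.3 to 135 in the embryonic samples. Sdha, the flavoprotein, had differences of 0.09 and 1.03 on the 2 scales (adjusted p = 0.60 and 4.3e-05). Its highest adult sample was the first 4wk library at 157 FPKM, the other 3 being 87.7 to 96.3, and without that library the deposited difference was -0.10. Sdhc and Sdhd, which anchor the enzyme in the membrane, were at -0.26 and -0.51 as deposited (adjusted p = 0.11 and 0.015) and at 0.68 and 0.43 after rescaling (adjusted p = 0.0015 and 0.054).

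In complex III, which hands electrons to cytochrome c, Uqcrq had the highest and Uqcrh the lowest difference. Uqcrq ran from 112 to 247 FPKM in the embryonic samples with a median of 142, and was 206, 175, 197 and 194 in the adult samples. The adult samples lay above all embryonic samples but the first of E16.5, with a log2 difference of 0.40 ± 0.19 (adjusted p = 0.071) that became 1.34 ± 0.19 after rescaling (adjusted p = 5.3e-05). Uqcrh, the hinge protein next to cytochrome c1, had -0.48 ± 0.26 (adjusted p = 0.10) and 0.47 ± 0.28 (adjusted p = 0.17). Uqcr10 was at -0.41 and 0.54 on the 2 scales, and Uqcrb at -0.01 and 0.93, though 61.5% of the 50-base windows of Uqcrb have an exact copy elsewhere in the genome.

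Among the 10 common subunits of complex IV, 0 passed an adjusted p of 0.1 as deposited, where 11.7% of all tested genes were higher and 69% lower. At the same adjusted p and no minimum size, 9 were higher after rescaling, against 31.4% of all tested genes. Cox7b had the highest difference, 0.36 ± 0.23 as deposited (adjusted p = 0.16) and 1.30 ± 0.25 after rescaling (adjusted p = 0.00055). Its rescaled adult levels were 364, 354, 311 and 281 against 91.0 to 226 in the embryonic samples. Cox8a was the most abundant at 12wk, at 403 and 373 FPKM, within the embryonic range of 248 to 634. The general forms Cox4i1, Cox6a1, Cox6b1 and Cox7a2 were all between -0.15 and 0.12 as deposited and between 0.79 and 1.06 after rescaling.

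**Figure D2:**
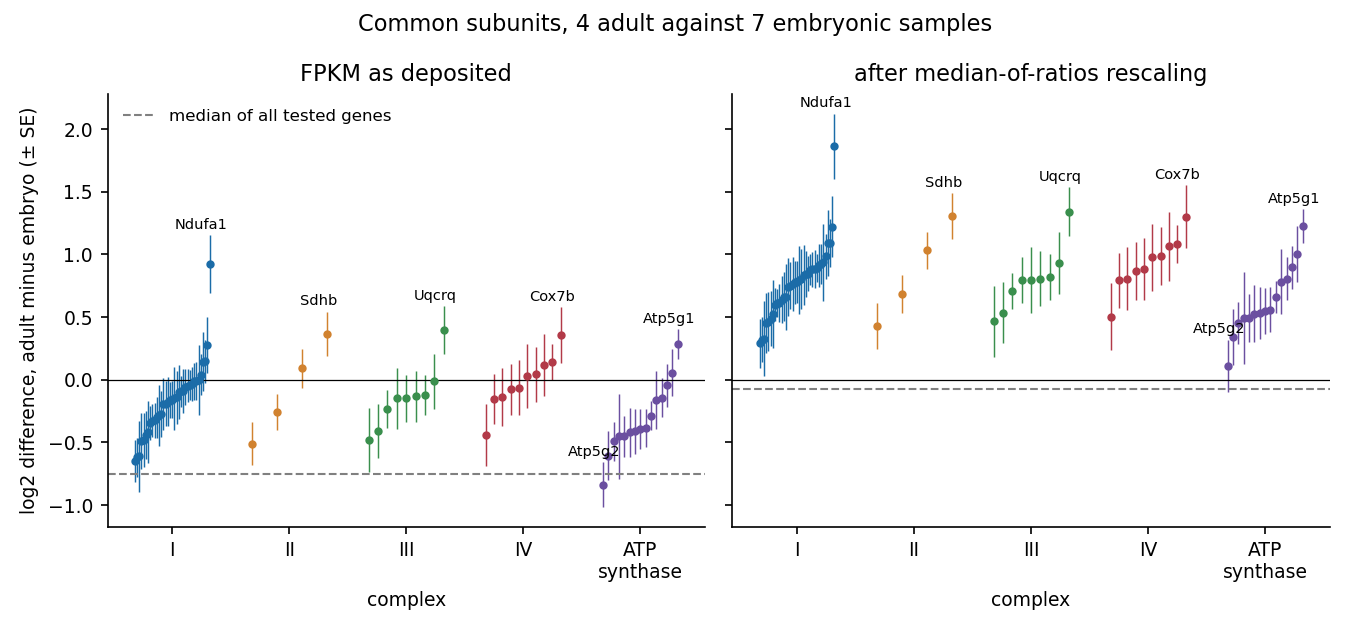
Log2 difference, adult minus embryo, with its SE for each common subunit, sorted within its complex, as deposited (left) and after median-of-ratios rescaling (right); the dashed line is the median of all 14650 tested genes, -0.75 and -0.08. All subunits but Atp5g2 lie above the dashed line on the left and all lie above it on the right.

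In ATP synthase 9 of 15 common subunits were lower and 1 higher as deposited, at an adjusted p below 0.1 and no minimum size, where 69% and 11.7% of all tested genes were. Atp5b, the catalytic beta subunit and the most abundant gene of the enzyme at 12wk, ran from 667 to 916 FPKM in the embryonic samples and was 953, 776, 669 and 647 in the adult samples. These ranges overlapped, with a log2 difference of -0.14 ± 0.15 (adjusted p = 0.41). After rescaling the adult samples, from 982 to 1330, lay above all embryonic samples, from 497 to 790, and the difference was 0.81 ± 0.17 (adjusted p = 0.0012). Atp5k, a small membrane subunit, was at -0.60 ± 0.19 (adjusted p = 0.012) and 0.34 ± 0.22 (adjusted p = 0.19).

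The 3 genes for the c subunit of the proton ring, which encode the same mature protein, differed in their values. Atp5g1 ran from 134 to 194 FPKM in the embryonic samples with a median of 151, and P5 gave 129 and 137, 4wk 192 and 210, and 12wk 180 and 170. Atp5g3 ran from 454 to 732 with a median of 542, and P5 gave 463 and 485, 4wk 500 and 430, and 12wk 343 and 338. The log2 difference between adult and embryo was 0.28 ± 0.12 for Atp5g1 and -0.49 ± 0.16 for Atp5g3 as deposited (adjusted p = 0.043 and 0.011), and 1.23 ± 0.14 and 0.46 ± 0.17 after rescaling (adjusted p = 5.5e-06 and 0.029). A ratio of 2 genes within a sample depends on how that sample is scaled only through the pseudocount of 0.1, which matters for the isoforms at low levels. The log2 ratio of Atp5g1 to Atp5g3 was -1.86 ± 0.08 (SD, n = 7) in the embryonic and -1.08 ± 0.20 (SD, n = 4) in the adult samples. It was higher in 4 of 4 adult samples than in any embryonic sample, a difference of 0.78 (two-sided exact permutation test over 330 labelings, p = 0.0061, the smallest they can give, adjusted over 7 ratios to 0.011). At P5 it was still -1.84 and -1.82, within the embryonic range of -1.92 to -1.73.

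Atp5g2 ran from 256 to 526 FPKM in the embryonic and from 175 to 231 in the adult samples, with no overlap and a log2 difference of -0.84 ± 0.18 (adjusted p = 0.00080). After rescaling the embryonic samples, from 191 to 422, and the adult samples, from 244 to 353, overlapped, and the difference was 0.11 ± 0.21 (adjusted p = 0.67). Its ratio to Atp5g3 differed by -0.35 (exact permutation p = 0.11, adjusted 0.13). All 50-base windows of the Atp5g2 transcript have an exact copy elsewhere in the genome, as have 29.4% of those of Atp5g1 and 0% of those of Atp5g3. Reads with several matches were dropped in the counting, yet Atp5g2 was listed at 175 to 526 FPKM. Which reads gave these values was not tested, so the level of Atp5g2 is uncertain. Such copies were present for 43 of the 84 members and covered over 50% of the windows in 6.

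**Figure D3:**
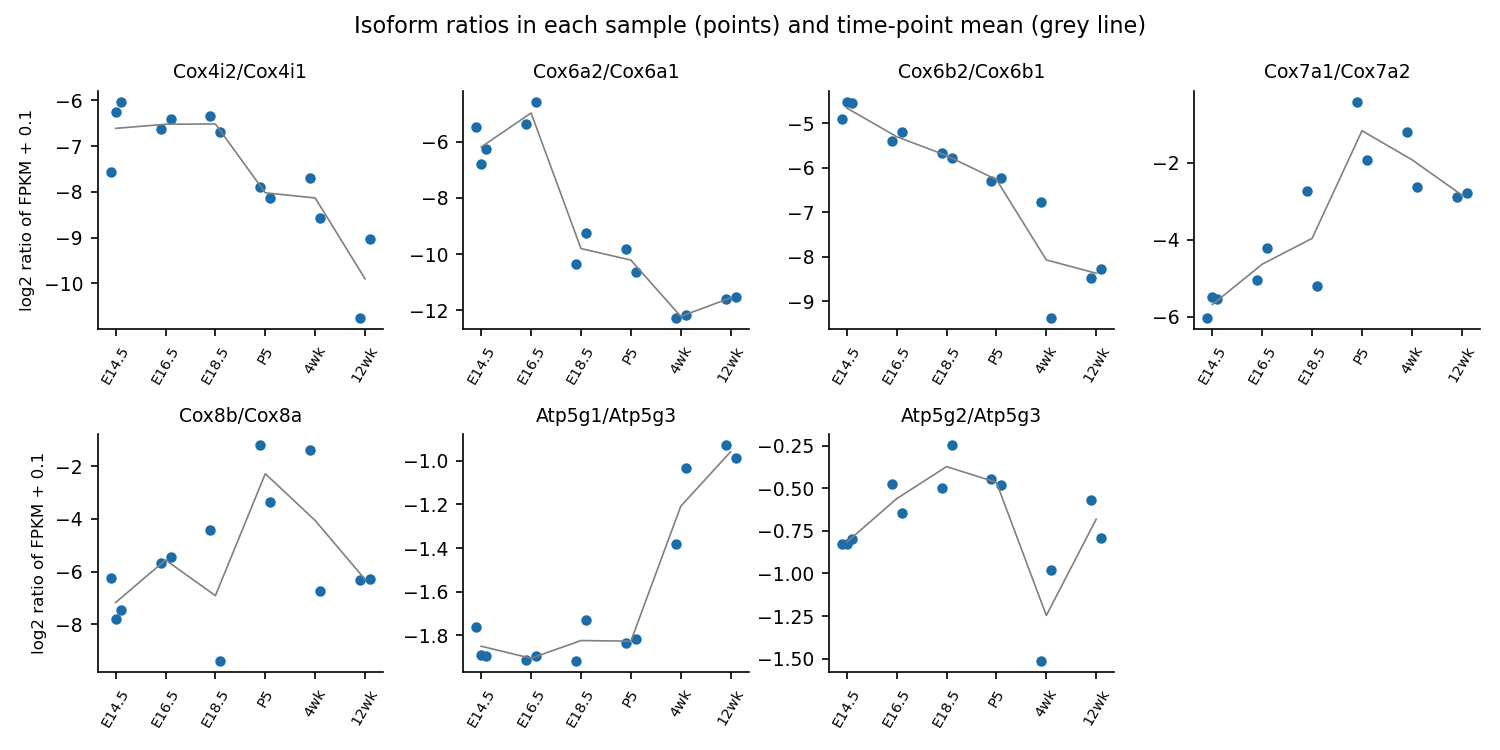
Log2 ratio of FPKM + 0.1 between each isoform and its partner in each sample (points) and the mean of each time point (grey line). Atp5g1 to Atp5g3 is flat to P5 and higher at 4wk and 12wk. Cox4i2, Cox6a2 and Cox6b2 are lower against their partners at 4wk and 12wk than at the embryonic ages, with Cox6a2 highest at E16.5. Cox7a1 and Cox8b peak at P5.

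Of the tissue isoforms of complex IV, 1 was called higher and 3 lower between adult and embryo as deposited, and no other member was called. On mm9 their genes lie at chr2:152579909-152590773 (plus strand) for Cox4i2, chr7:135348950-135349880 (minus) for Cox6a2, chr7:4703396-4704696 (minus) for Cox6b2, chr7:30969190-30971047 (plus) for Cox7a1 and chr7:148084842-148086345 (minus) for Cox8b. The 3 called lower fell against their general partners in every adult sample. For Cox6a2, listed at 0 there, the adult ratio rests on the pseudocount. Cox6b2, known from testis, ran from 9.45 to 15.5 FPKM in the embryonic samples, and P5 gave 6.20 and 5.03, 4wk 3.98 and 0.624, and 12wk 0.986 and 0.932. The groups did not overlap and the log2 difference was -2.45 ± 0.26 (adjusted p = 1.5e-06), and -1.79 ± 0.27 after rescaling (adjusted p = 7.0e-05). Its log2 ratio to Cox6b1 went from -5.14 ± 0.51 (SD, n = 7) to -8.22 ± 1.09 (SD, n = 4), exact permutation p = 0.0061, adjusted 0.011.

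Cox4i2, a form of subunit 4 known from lung and oxygen-sensing cells, ran from 1.85 to 6.64 FPKM in the embryonic samples with a median of 5.70, and P5 gave 2.22 and 1.47, 4wk 2.36 and 1.04, and 12wk 0.126 and 0.532. The first 4wk sample overlapped the first E14.5 sample, and the log2 difference was -1.65 ± 0.30 (adjusted p = 0.00019), and -1.10 ± 0.33 after rescaling (adjusted p = 0.0098). The ratio to Cox4i1 was lower in 4 of 4 adult samples than in any embryonic sample, with a difference of -2.46 log2 units at a pseudocount of 0.1 and -1.496 at a pseudocount of 1 (exact permutation, adjusted p = 0.011 and 0.014).

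Cox6a2, the heart and skeletal muscle form of subunit 6a, gave 6.06, 4.01 and 2.38 FPKM on E14.5, rose to 13.2 and 18.02 on E16.5, gave 0.175 and 0.608 on E18.5, then 0.440 and 0.144 on P5, and was listed at 0 in all 4 adult samples. Between E14.5 and E16.5 it rose by 1.74 ± 0.27 (adjusted p = 0.0020) and between E16.5 and E18.5 it fell by 3.58 on the log2 scale (SE 0.30, adjusted p = 7.0e-05). Its ratio to Cox6a1 was lower in every adult than in any embryonic sample (exact permutation p = 0.0061, adjusted 0.011). With Cox6a2 at 0, each adult ratio was only the pseudocount over Cox6a1, so the size of the difference depends on the pseudocount. By the estimated depths, 1 read on this gene in the first 4wk library exceeds the 0.175 FPKM of the first E18.5 sample. The adult values lay below the 2.38 to 18.02 FPKM of E14.5 and E16.5. Whether Cox6a2 was lower than at E18.5 the test cannot decide. Skeletal muscle markers moved with it: 17 to 20 of 23 were at 1 FPKM or more in the E14.5 and E16.5 samples, with a summed level of 379 to 2233 FPKM, against 0 to 14 and 4.40 to 88.7 FPKM in all later samples. Their part in the level of Cox6a2 was not tested.

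Cox7a1 rose. E14.5 gave 1.84, 3.77 and 3.48 FPKM, E16.5 gave 11.002 and 7.84, E18.5 gave 35.6 and 7.16, P5 gave 138 and 44.8, 4wk gave 116 and 34.7, and 12wk gave 28.0 and 26.4. The P5 samples lay above all embryonic samples, while in the adult stage only the first 4wk sample did so and the others overlapped the first E18.5 sample. The log2 difference from embryo was 3.34 ± 0.78 at P5 (adjusted p = 0.0089) and 2.43 ± 0.61 in the adult samples (adjusted p = 0.0025), the latter 3.30 ± 0.61 after rescaling (adjusted p = 0.00037). Its ratio to Cox7a2 differed by 2.51 log2 units between adult and embryo (exact permutation p = 0.018, adjusted 0.025), with 2 of 4 adult samples above all embryonic samples. Without the first or the second 4wk sample the adjusted p was 0.07 with differences of 2.12 and 2.60.

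Cox8b followed a sharper course. E14.5 gave 3.14, 1.85 and 1.24 FPKM, E16.5 gave 12.4 and 9.16, E18.5 gave 17.2 and 0.594, P5 gave 203 and 35.4, 4wk gave 117 and 3.46, and 12wk gave 4.92 and 4.75. Replicates of E18.5, P5 and 4wk stood far apart, and only P5 lay wholly above the embryonic samples. The log2 difference from embryo was 4.05 ± 1.18 at P5 (adjusted p = 0.023) and 1.15 ± 0.92 in the adult samples (adjusted p = 0.27), and it fell from P5 to adult by 2.90 (SE 1.28, adjusted p = 0.077). After rescaling the adult difference was 1.93 ± 0.91 (adjusted p = 0.079) and passed the call. The ratio of Cox8b to Cox8a differed by 1.46 log2 units between adult and embryo (exact permutation p = 0.32, adjusted 0.32), with 1 of 4 adult samples above all embryonic samples.

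Brown fat markers, as a sum, were highest in the 4 libraries where Cox7a1 and Cox8b were highest. Ucp1, the uncoupling protein that defines brown fat, reached 5.33 FPKM in the first E18.5 sample, 311 and 59.2 in the P5 samples and 106 in the first 4wk sample, and between 0 and 0.319 in the other 9 libraries. Cidea, a lipid droplet protein of the same cells, was 18.2, 107, 22.0 and 80.8 FPKM in those 4 libraries and at most 1.06 elsewhere. The summed level of the 8 brown fat markers was 28.5 to 439 FPKM in the 4 libraries, most of it from Ucp1 and Cidea. In these libraries 4 or 5 markers were at 1 FPKM or more. The sum was 1.88 to 4.50 FPKM in the others, with 0 to 2 markers. Between adult and embryo the 2 lowest markers of the list, Prdm16 and Dio2, were at -0.44 and -0.30 as deposited. Without these 4 libraries the adult difference of Cox7a1 was 2.32 (adjusted p = 0.00033) and that of Cox8b was 0.34 (adjusted p = 0.63). Both P5 samples had the brown fat markers, so the rise of Cox7a1 and Cox8b at P5 cannot be told apart from them. Skeletal muscle markers also set the first 4wk library apart, with 12 of 23 at 1 FPKM or more and a sum of 68.7 FPKM. The other adult libraries had 0 or 1 and 4.40 to 4.56 FPKM. These markers were far higher at E14.5 and E16.5, with sums of 379 to 2233 FPKM, and their part in Cox7a1 and Cox8b was not tested.

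**Figure D4:**
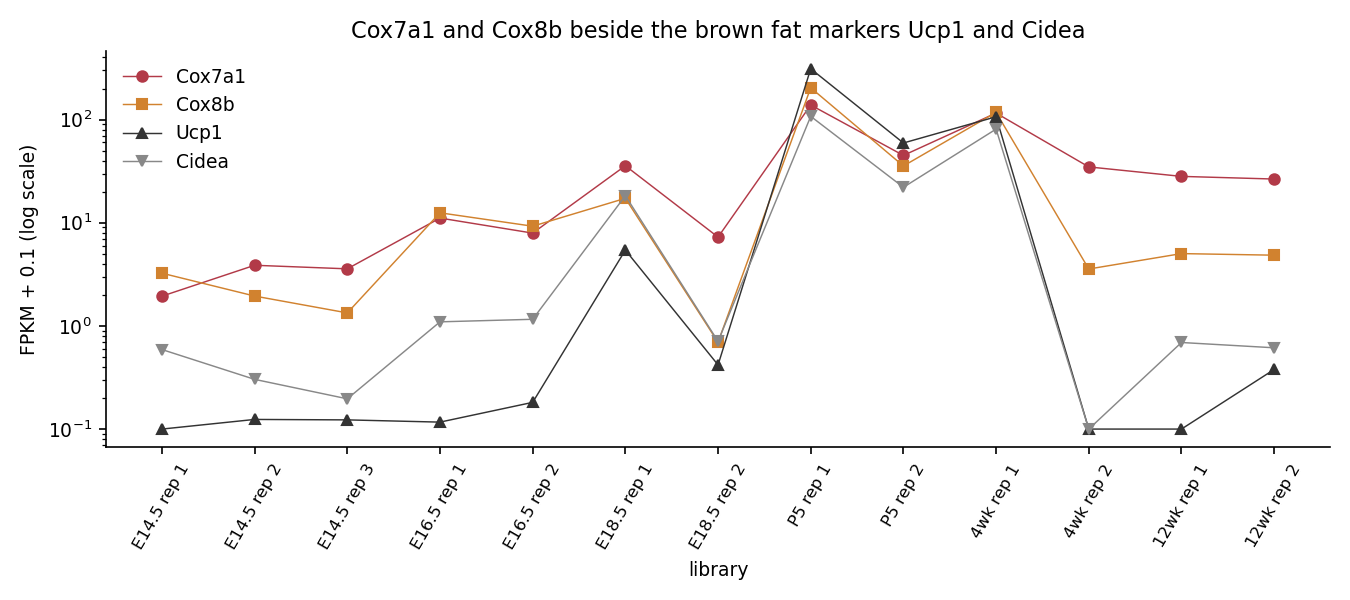
FPKM + 0.1 (log axis) of Cox7a1 and Cox8b and of the brown fat markers Ucp1 and Cidea in each of the 13 libraries. All 4 genes are high in both P5 samples and the first 4wk sample, and Cox7a1 alone stays at 26.4 to 34.7 FPKM in the adult libraries without Ucp1.

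The 3 genes that matched by name only were Cox7a2l, an assembly factor of supercomplexes, and Atp5s and Atp5sl, which resemble an ATP synthase coupling factor. Cox7a2l fell by 0.92 on the log2 scale (adjusted p = 0.0016) as deposited and was at 0.03 after rescaling, with 54.3% of its windows copied elsewhere. Atp5s was at -0.58 (adjusted p = 0.0010) and 0.22, and Atp5sl at 0.09 and 0.96. None of them reached the 2-fold call on either scale.

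Neighbouring time points were compared next. From E14.5 to E16.5, 3 of the 73 common subunits and Cox6a2 were called higher, where 4.17% of all tested genes were. The share of common subunits called was thus near the background, and no member was lower (0.983%). With no minimum size 25 of the 73 were higher (34.2%), against 13.9%. Atp5j2, a membrane subunit of ATP synthase, was 226, 260 and 225 FPKM at E14.5 and 743 and 339 at E16.5, a log2 difference of 1.08 ± 0.26 (adjusted p = 0.017). Ndufb2 was at 1.04 ± 0.29 (adjusted p = 0.029) and Cox5b, which binds zinc, at 1.01 ± 0.21 (adjusted p = 0.0079), with 62.7% of the windows of Cox5b copied elsewhere. In each of these the first E16.5 sample was above the second, by 743 against 339, 223 against 106 and 386 against 263 FPKM.

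That library stood apart for the common subunits as a whole. The first E16.5 sample was above the second for 65 of 73 common subunits, by a median log2 difference of 0.66, while the median over all tested genes was -0.13. Expressed genes with exons under 1000 bases in all differed by 0.57 and those of at least 3000 bases by -0.24. The median exon length was 1304.5 bases for the common subunits and 3570 for the tested genes. The part of gene length in the step was not tested. Without that library 0 common subunits were called, their median was 0.10 against 0.04 for all genes, and 6 passed the adjusted p, and without the second E16.5 library 23 were called.

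From E16.5 to E18.5, 0 common subunits were called higher or lower (1.09% and 1.85% of all tested genes were), with 4 at an unadjusted p below 0.05. From E18.5 to P5 none was called either (2.07% higher and 2.97% lower among all tested genes), with 8 at an unadjusted p below 0.05, while Cox7a1 and Cox8b were called higher by 2.21 ± 0.71 and 4.00 ± 1.37 (adjusted p = 0.053 and 0.067) and Cox4i2 fell by 1.26 on the log2 scale (adjusted p = 0.039). Without the second E18.5 or the first P5 sample 0 members were called higher, and without any 1 of the 4 samples of this step 0 were called lower. Over the whole stage, P5 against embryo, Cox7a1 and Cox8b were called higher and Cox4i2 and Cox6a2 lower (4.14% and 8.14% of all tested genes), and 0 common subunits were, with 2 at an unadjusted p below 0.05. Without the first P5 sample none of these members was called higher, and without any 1 of the P5 samples or the first E16.5 sample, or after rescaling, none was called lower.

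From P5 to 4wk, the time of weaning, the 2 scales parted. As deposited 0 common subunits were called in either direction, with 7 at an unadjusted p below 0.05, and their median difference was 0.02, against -0.53 over all tested genes, of which 2.19% were called higher and 22.1% lower. After rescaling 12 were called higher (6.37% of all tested genes) and 56 were higher with no minimum size (23.2%). Ndufa1, Sdhb, Atp5g1 and Atp5j, the coupling factor subunit, led the rescaled step at 1.47, 1.30, 1.26 and 1.22. The same 4 were the ones higher at an adjusted p below 0.1 as deposited, where 6.41% of all tested genes were, and Atp5g2, Ndufa10 and Ndufv3 were lower, at -0.81, -0.40 and -0.32, where 58.6% were. Cox6b2 was called lower, at -1.21 ± 0.39 (adjusted p = 0.021), a call lost after rescaling (-0.79, adjusted p = 0.16) and without the first P5 or the second 4wk sample, and without the first 4wk sample 2 members were lower. For the whole adult stage against P5, as deposited, 0 members were higher and Cox6b2 and Cox8b lower (2.31% and 20.8% of all tested genes), 1 of them without the first P5, the second 4wk or either 12wk sample, and after rescaling 6 common subunits were higher (6.05%).

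From 4wk to 12wk the median difference of the common subunits was -0.36 as deposited and -0.34 after rescaling, where the median of all tested genes was 0.00 and 0.01. Ndufc2 went from 130 and 130 FPKM to 56.8 and 60.6, a log2 difference of -1.13 ± 0.23 (adjusted p = 0.0094), and Atp5j2 from 361 and 396 to 195 and 171, a difference of -1.05 ± 0.29 (adjusted p = 0.037). These were the 2 of 81 tested members called lower, where 2.48% of all tested genes were, so that share was near the background. None was higher (2.68%), and with no minimum size 9 of the 73 common subunits were lower (12.3%, against 8.97%). Without the second 4wk sample 6 members were called lower, and without the second 12wk sample 1. Both 4wk libraries were the shallowest of the series.

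Beside the other genes of mitochondrial and sugar metabolism, the common subunits stood at the upper end. The lists were assembled with earlier results in view, so their counts are a description. The 19 citric acid cycle and pyruvate dehydrogenase genes had medians of -0.16 and 0.77 on the 2 scales, close to the -0.15 and 0.79 of the common subunits. Against the 38% lower as deposited and 13.8% higher after rescaling among all tested genes, 1 of them was called lower as deposited, Idh2 at -1.24 ± 0.10, and 5 were called higher after rescaling, among them Ogdh at 1.83 ± 0.16 and Pcx at 1.67 ± 0.20. The 42 assembly factors of the complexes had medians of -0.61 and 0.23, with 5 lower as deposited, among them Ndufaf2 and Ndufaf6 at -1.66 and -1.52, and 1 higher after rescaling, Ecsit at 1.22.

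The 76 mitochondrial ribosomal proteins had medians of -0.81 and 0.09, with 22 called lower as deposited (28.9%, against 38% of all tested genes), and 0 called in either direction after rescaling. The 77 cytosolic ribosomal proteins had medians of -1.67 and -0.77, with 75 lower as deposited and 16 lower after rescaling (38% and 14.7% of all tested genes). The 19 glycolysis genes had medians of -1.26 and -0.32, with 11 lower as deposited (38% of all tested genes). After rescaling 4 of them were higher and 1 lower (13.8% and 14.7% of all tested genes). Aldoc, the brain form of aldolase, was the gene lower on both scales, at -3.67 ± 0.35 and -2.83 ± 0.37, while Pfkm and Hk2 were at 0.71 and 0.53 as deposited and 1.63 and 1.40 after rescaling.

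**Figure D5:**
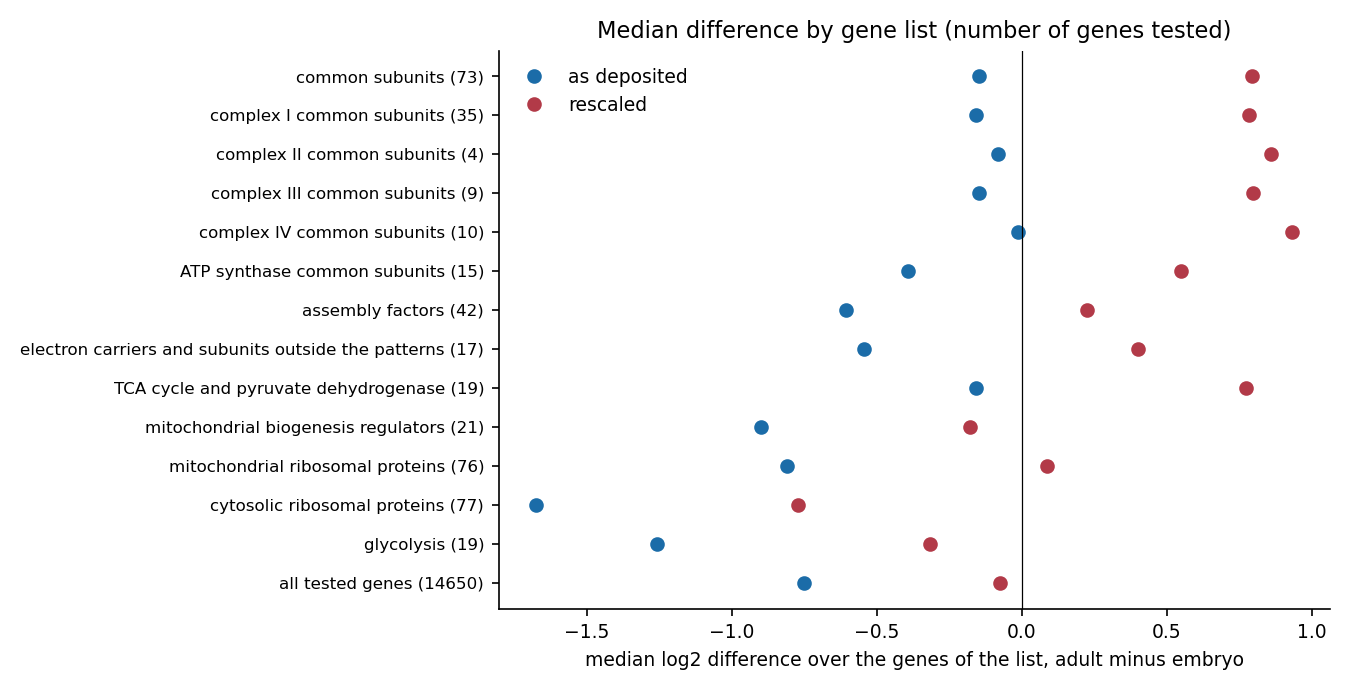
Median log2 difference, adult minus embryo, over the tested genes of each list (number in brackets), as deposited (blue) and after median-of-ratios rescaling (red). The common subunits, at -0.15 and 0.79, and the citric acid cycle genes, at -0.16 and 0.77, lie above the assembly factors, the ribosomal proteins and the glycolysis genes on both scales.

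Among 17 electron carriers and related subunits outside the name patterns, 3 were called lower as deposited (38% of all tested genes were). After rescaling 2 were called higher and 1 lower (13.8% and 14.7% of all tested genes), and the medians were -0.55 and 0.40. Atpif1, which inhibits ATP synthase, ran from 265 to 555 FPKM in the embryonic samples, P5 gave 164 and 182, and it stood at 108, 133, 98.5 and 97.4 in the adult samples. These groups did not overlap, and the log2 difference was -1.64 ± 0.18 (adjusted p = 2.6e-06) as deposited and -0.70 ± 0.21 after rescaling. Ndufa4l2, a paralog of Ndufa4, was at -1.97 ± 0.31 and -1.27 ± 0.33, and Coq9, of ubiquinone synthesis, was at 0.78 ± 0.24 and 1.71 ± 0.25.

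Of 21 regulators of mitochondrial biogenesis, 1 was called higher and 10 lower as deposited (5.58% and 38% of all tested genes), and 4 higher and 1 lower after rescaling (13.8% and 14.7%). Esrrg, an estrogen-related receptor that acts on oxidative metabolism genes, was the one higher on both scales, from 0.483 to 6.62 FPKM in the embryonic samples to 9.26 and 9.69 (P5) and to 34.9, 34.4, 28.7 and 36.7 in the adult samples. The groups did not overlap, and the log2 difference was 3.49 ± 0.41 (adjusted p = 3.8e-06). Ppargc1a, its coactivator, ran from 0.958 to 5.35 FPKM in the embryonic samples, with 18.2 and 18.8 on P5, then 6.91, 7.24, 5.36 and 2.85 in the adult samples. Mterfd2 and Yy1 were lowest, at -2.03 ± 0.11 and -1.51 ± 0.15.

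Markers of other cell types shifted between the same samples. As deposited, 5.58% of all tested genes were called higher and 38% lower, and after rescaling 13.8% and 14.7%. Of the ductal markers 11 of 13 were called higher, with a summed level of 140 to 433 FPKM in the embryonic and 33340 to 68235 FPKM in the adult samples. The 2 lowest of that list, Atp6v1b1 and Slc26a9, were at -0.89 and -0.64 as deposited. Klk1 is on both the ductal and the epithelium list. Salivary epithelium markers went from 368 to 34010 FPKM in the embryonic to 86411 to 175799 FPKM in the adult samples, with 6 of 14 called higher and 2 lower as deposited and 8 higher and 1 lower after rescaling. The 2 lower were the keratins Krt19, at -2.41, and Krt14, at -1.02 and named after its value was seen, which was at -0.09 after rescaling. Smgc had the lowest difference of the whole list as deposited, at -3.43, but was not among the 2 called. Mesenchyme markers fell in 7 of 8, from 2195 to 3307 FPKM to 289 to 577 FPKM, and 6 of 6 tested erythroid markers were lower, from 79.5 to 3374 FPKM to 2.91 to 4.65 FPKM. The part of this change in cell make-up in the levels of the respiratory subunits was not tested.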

How the data were processed

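Submandibular gland RNA of 13 samples had been sequenced as 50-base reads. Per the submitters' processing notes and the study's methods, the authors aligned with TopHat2 2.0.13 and Bowtie2 2.2.6 to mm9, counted reads on genes with featureCounts, leaving out reads with several matches, and normalised with DESeq2 1.10.1. They deposited 1 FPKM value per gene and sample. How that normalisation entered the deposited values is not clear from them, since their median-of-ratios factors ran from 0.617 to 1.38. No counts were given, so no count model was run.

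Genes reaching 1 FPKM in any sample were tested with limma 3.58.1 in R 4.3.3 on log2(FPKM + 1), with Benjamini-Hochberg adjustment over all 14650 tested genes. Stage comparisons used 1 fit of 3 stages, steps 1 fit of 6 time points. Differences are on that log2 scale and understate changes of low genes. The study calls the samples of a time point biological replicates, the embryonic ones being pools, and litters are not given. In the steps the p-values measure the spread between samples of a time point. In the stage fits and the isoform ratios that spread also holds the differences between the ages joined in a stage. Isoform ratios were compared by exact permutation with a pseudocount of 0.1. Median-of-ratios factors came from 13039 genes above 0 in every sample. The fits were tested on simulated data. Transcript windows were matched to NCBIM37, gene lengths came from GENCODE for 83 members, and promoters from RefSeq on GRCm38.p6.

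Named members followed a rule: per complex the 2 highest and 2 lowest adult differences and the most abundant gene at 12wk, all isoforms and partners, and members called in a step; of other lists the 2 highest and 2 lowest were eligible. The members and lists were chosen with earlier results of these data known. Depth was estimated from the values and limits low genes most: 1 read on a 1000-base gene is 0.0207 to 0.172 FPKM. Alternatives were pseudocounts, filters, scalings, a replicate block, averaged or separate stages, and leaving out samples. Leaving out the libraries with Ucp1, and combining rescaling with other choices, were chosen after seeing the data.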

Additional observations from a re-analysis of the deposited data

Results flagged for a closer look

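The values of named members and the summed levels of the complexes gave 80 groups, embryonic or adult. In 9 of them, all of named members, 1 sample stood far from the others of its stage by Dixon's test. Chance does so in about 1 of 20 groups of independent samples from 1 population. Here each stage joined several ages and the groups shared libraries, so that rate is only a rough guide. The first E16.5 sample was high among the embryonic samples for Ndufa5 (164 FPKM), Sdhb (168 FPKM) and Uqcrq (247 FPKM). The first 4wk sample was high among the adult samples for Cox6b2 (3.98 FPKM), Cox7a1 (116 FPKM), Cox8b (117 FPKM) and Sdha (157 FPKM). The first E18.5 sample was high for Cox7a1 (35.6 FPKM), and the first E14.5 sample was low for Cox4i2 (1.85 FPKM). The first 4wk and the first E18.5 samples were among the 4 libraries with Ucp1, and the part of the brown fat markers in these values was not tested.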

How the results depend on the processing

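Scaling changed the most values; in each case below the cause was not tested beyond the change of scale itself. With median-of-ratios rescaling 14 members were called higher between adult and embryo, 6 between adult and P5 and 12 between 4wk and P5, and called lower were 0 between P5 and embryo, 1 between adult and P5 and 0 between 4wk and P5. Scaled without the 100 top genes of each sample, the counts were 7 higher between adult and embryo, 2 higher between 4wk and P5, 1 higher between E16.5 and E14.5, and 0 (P5 against embryo) and 1 (adult against P5) lower. The mean log2 differences of complexes I, II, III, IV and ATP synthase were 0.78, 0.86, 0.80, 0.93 and 0.63 under the first scaling and 0.59, 0.68, 0.61, 0.74 and 0.44 under the second, and over all complexes 0.77 and 0.59. Signs turned under the first to 0.81 for Atp5b, 0.11 for Atp5g2, 0.46 for Atp5g3, 0.49 for Atp5j2, 0.34 for Atp5k, 0.79 for Cox4i1, 0.87 for Cox6b1, 0.88 for Cox8a, 0.66 for Ndufa4, 0.32 for Ndufa5, 0.94 for Ndufb2, 0.29 for Ndufb6, 0.33 for Ndufc2, 0.68 for Sdhc, 0.43 for Sdhd, 0.54 for Uqcr10, 0.93 for Uqcrb and 0.47 for Uqcrh. Under the second they turned to 0.62 for Atp5b, 0.27 for Atp5g3, 0.30 for Atp5j2, 0.15 for Atp5k, 0.60 for Cox4i1, 0.68 for Cox6b1, 0.70 for Cox8a, 0.47 for Ndufa4, 0.13 for Ndufa5, 0.75 for Ndufb2, 0.10 for Ndufb6, 0.14 for Ndufc2, 0.49 for Sdhc, 0.24 for Sdhd, 0.35 for Uqcr10, 0.74 for Uqcrb and 0.28 for Uqcrh.

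With a pseudocount of 0.1, 1 member was lower between P5 and embryo and 2 between 4wk and P5. With no filter on low values 1 was lower between P5 and embryo, 1 lower between adult and P5 and 0 higher between P5 and E18.5. With the 2 stages compared alone 1 was lower in each of P5 against embryo and adult against P5. With time points averaged by stage Cox5b was at -0.050 and Cox6a1 at -0.014. Without the 4 libraries with Ucp1, an alternative chosen after seeing the data, Cox5b was at -0.047, Cox6a1 at -0.093, Cox8a at 0.016, Ndufb2 at 0.092 and Sdha at -0.073.

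No pairing by replicate number was seen on average. Deviations from the time point means correlated at a mean r of -0.016 over 30 pairs with the same number and 0.012 over 40 with different numbers. Where a time point has 2 samples their deviations mirror each other, so the 2 means are not separate evidence. Single pairs with the same number ran from -0.35 to 0.27, and pairing between single time points was not tested. With the replicate number as a block, 2 members were higher between E16.5 and E14.5, 1 was lower between P5 and embryo, Cox5b was at -0.082 and Cox6a1 at -0.024, and after rescaling 13 members were higher between adult and embryo.

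Leaving out 1 sample at a time, members called higher ranged from 1 to 2 (adult against embryo), 0 to 2 (P5 against embryo), 1 to 24 (E16.5 against E14.5) and 0 to 2 (P5 against E18.5), and from 9 to 20 after rescaling (adult against embryo). Members called lower ranged from 3 to 4 (adult against embryo), 0 to 3 (P5 against embryo), 1 to 3 (adult against P5), 0 to 1 (P5 against E18.5), 0 to 2 (4wk against P5) and 1 to 6 (12wk against 4wk). Differences that crossed 0 ranged from -0.082 to 0.16 for Cox5b, -0.088 to 0.17 for Cox6a1, -0.16 to 0.037 for Cox6b1, -0.16 to 0.061 for Cox8a, -0.13 to 0.17 for Ndufb2, -0.10 to 0.18 for Sdha and -0.15 to 0.10 for Uqcrb. The Cox7a1 to Cox7a2 ratio ranged from 2.12 to 2.87. Where 1 sample was left in a group, it was assumed to vary like the others. Depth limits the low isoforms most in the 4wk samples.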
